A study of Homo sapiens with 9 samples.

Results

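The genes examined here are 10 enzymes of serine, proline and ornithine synthesis and their close partners, measured by RNA sequencing in PANC1 cells in which NUSAP1 was raised or lowered. They are PHGDH, PSAT1 and PSPH of serine synthesis, SHMT1, SHMT2 and MTHFD2 of the serine and folate cycle, ALDH18A1 and PYCR1 of proline synthesis, OAT of ornithine metabolism and GPT2 of alanine metabolism. The 10 were chosen by name after changes of several of them had been seen in these same libraries, on the read counts and FPKM values of the comparisons given below. Their values are therefore a description, and no count, median or p-value over them is independent evidence. All 10 are among the 60612 genes of the deposited table, and all 10 passed the filter on low values that left 12545 genes for testing.

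PANC1 is a cell line from a human pancreatic ductal adenocarcinoma. The 9 libraries form 3 groups of 3: wild-type cells with no treatment (control), cells with a flag-NUSAP1 plasmid (overexpression), and cells with a small interfering RNA (siRNA) directed at NUSAP1 (knockdown). The NUSAP1 protein binds spindle microtubules during mitosis. The labels give no group with an empty plasmid or a control siRNA, so a change in NUSAP1 and the transfection itself cannot be told apart in either comparison with control, and those comparisons share the same 3 control libraries. Whether a group's 3 replicates came from separate cultures is not in the labels, and the p-values cover the spread between these samples, which may be technical.

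Serine is made from the glycolytic intermediate phosphoglycerate by PHGDH, PSAT1 and PSPH in turn, and the serine hydroxymethyltransferases then pass a carbon of serine to folate, which feeds nucleotide synthesis. Proline is made from glutamate through pyrroline carboxylate, a compound that ornithine aminotransferase, the product of OAT, also makes from ornithine. In many tumours these routes are regulated together with amino acid supply through the transcription factor ATF4 and are used for growth, and pancreatic ductal adenocarcinoma cells are known to make ornithine through OAT for polyamine synthesis.

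Total counts ranged from 57115172 to 73386227 per library. NUSAP1 (ENSG00000137804, chromosome 15, 41320794 to 41381050) had an FPKM of 30.9, 34.0 and 42.1 in control, 13325, 13792 and 12910 in overexpression, and 12.0, 13.8 and 11.6 in knockdown libraries 1 to 3, so that the 3 groups did not overlap and the labels held. FPKM counts fragments per kilobase of a transcript relative to library size. NUSAP1 took 5.63% to 6.0% of all counts in the overexpression libraries, which lowers the FPKM of every other gene there, whereas the edgeR fold changes below use TMM factors that allow for it. Summed CPM (counts scaled to library size) of 18 hepatocyte markers were 74.7 and 96.4 in control 2 and 3 and 70.3 and 81.7 in overexpression 1 and 3, but 2.07 to 2.66 in the other 5 libraries, and between 0 and 12 of the 18 markers were at 0 in a library. The 5 ductal and epithelial markers, which are keratins and EPCAM, were present in all 9 libraries (their summed CPM was 470 to 688). The 5 acinar and 4 endocrine markers summed to at most 0.0681 and 0.319 CPM. The summed CPM of 6 fibroblast markers, mostly COL1A1, was 210 to 225 in control, 98.2 to 103 in overexpression and 152 to 162 in knockdown, and that of 6 immune markers, mostly CD68, was 33.0 to 40.2, 75.7 to 134 and 44.4 to 50.7. The part of these transcripts in the results below was not tested, except that values without the 4 libraries with hepatocyte transcripts are given.

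After overexpression, the serine synthesis genes and SHMT1 and GPT2 were lowered most, and after knockdown OAT and ALDH18A1 were. By edgeR's quasi-likelihood test with Benjamini-Hochberg adjustment over all genes tested, 7 of the 10 enzymes fell and 0 rose after overexpression, where 53.4% of all genes changed (26.0% fell and 27.4% rose). The fit without the 4 libraries with hepatocyte transcripts sets 1 overexpression library against 1 control library, and its spread comes from the knockdown libraries. In it the log2 fold changes of the 7 were PHGDH -1.19, PSAT1 -0.90, PSPH -1.49, SHMT1 -1.34, GPT2 -0.86, SHMT2 -0.69 and OAT -0.34. With all 9 libraries, 2 enzymes fell and 0 rose after knockdown, where 14.5% of all genes changed (7.43% fell and 7.02% rose). Without the 4 libraries edgeR called 0 of the 10 after knockdown (2 at an unadjusted p below 0.05) and 6 of all genes, and the 1813 genes called with all libraries became 962 without knockdown 1. At an unadjusted p below 0.05, 0 enzymes were higher in either comparison with control, and the share of all genes at that threshold is not given here. DESeq2 and limma also called 0 enzymes higher. Of all 12545 genes, DESeq2 called 3645 higher after overexpression and 1354 after knockdown. The same counts with limma on log2(FPKM + 1) were 3020 and 1001. Between overexpression and knockdown, 6 enzymes were lower and 2 higher in overexpression, where 50.0% of all genes differed (24.5% lower and 25.5% higher). The median log2 fold change of the 10 was -0.65 after overexpression and -0.22 after knockdown, beside medians over all genes tested of -0.0037 and 0.016. FPKM values of the groups did not overlap, with overexpression below control, for 9 of the 10 (34.9% of all genes), the exception being PYCR1, and 0 of the 10 lay wholly above control (27.8% of all genes). Knockdown lay below control without overlap for 5 of the 10 (16.5% of all genes) and above it for 0 (19.3%). The 5 were PHGDH, PSAT1, SHMT1, ALDH18A1 and OAT. In these bulk samples, fewer cells that express a gene and less of its RNA per cell cannot be told apart.

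**Figure D1:**
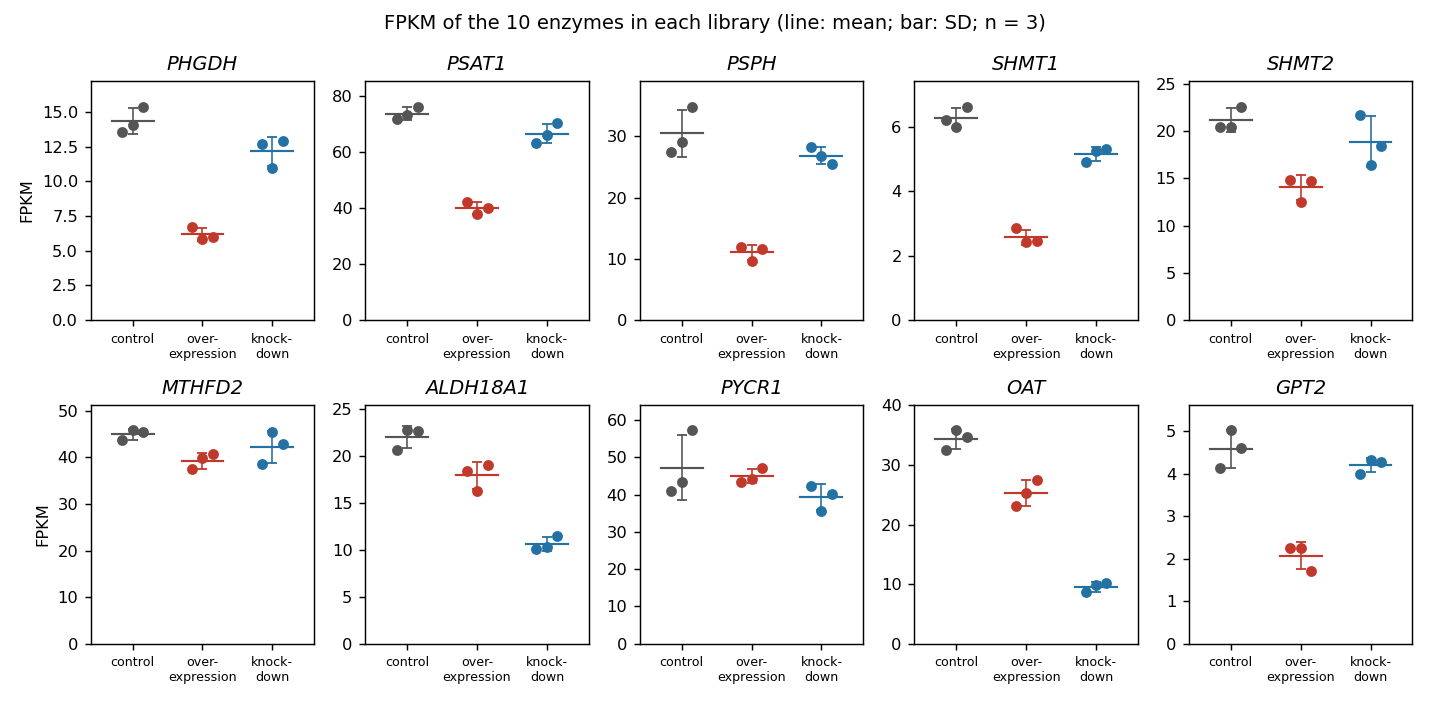
FPKM (y axis) of each of the 10 enzymes in the 9 libraries, grouped as control, overexpression and knockdown; points are libraries, lines are means and bars are SD (n = 3). PHGDH, PSAT1, PSPH, SHMT1 and GPT2 are lowest in overexpression, and OAT and ALDH18A1 are lowest in knockdown.

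In control cells, PSAT1 had the highest level per length of the 10, at a mean FPKM of 73.7 ± 2.31 (SD, n = 3), and GPT2 the lowest, at 4.59 ± 0.442. Between them, in falling order, stood PYCR1 (47.3 ± 8.73), MTHFD2 (44.9 ± 1.14), OAT (34.3 ± 1.69), PSPH (30.5 ± 3.88), ALDH18A1 (21.95 ± 1.17), SHMT2 (21.2 ± 1.25), PHGDH (14.3 ± 0.941) and SHMT1 (6.29 ± 0.319). The libraries of PYCR1 and MTHFD2, of OAT and PSPH, and of ALDH18A1 and SHMT2 overlapped, so the order within each of these pairs is not set. In overexpression PYCR1 stood first at 44.9 ± 1.88, above PSAT1 at 40.1 ± 2.12. In knockdown OAT stood eighth at 9.51 ± 0.776, and its libraries overlapped those of ALDH18A1. Summed over the 10, FPKM averaged 299 ± 19.7 in control libraries, 204 ± 7.28 after overexpression and 236 ± 5.31 after knockdown.

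PHGDH (ENSG00000092621, chromosome 1, 119648411 to 119744218) encodes phosphoglycerate dehydrogenase, the first enzyme of serine synthesis. Its FPKM was 13.6, 14.1 and 15.4 in control libraries 1 to 3, 6.69, 5.87 and 5.95 in overexpression, and 12.7, 10.98 and 12.9 in knockdown. Every overexpression library was below every other library, and the knockdown libraries lay just below the controls. After overexpression PHGDH had a log2 fold change of -1.13 ± 0.10 (SE, edgeR adjusted p = 3.87e-05), to 45.6% of control. The log2 fold change after knockdown was -0.25 ± 0.10 (edgeR adjusted p = 0.150), with an approximate 95% interval of -0.50 to 0.0034. Overexpression lay below knockdown by a log2 difference of -0.89 ± 0.10 (edgeR adjusted p = 0.000165).

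PSAT1 (ENSG00000135069, chromosome 9, 78297125 to 78330093) encodes phosphoserine aminotransferase, the next step, which takes its amino group from glutamate. Its FPKM was 71.6, 73.3 and 76.2 in control, 42.2, 38.0 and 40.1 in overexpression, and 63.3, 66.2 and 70.3 in knockdown. The order of the groups was the same as for PHGDH, with no overlap between any pair of groups. PSAT1 had a log2 fold change of -0.80 ± 0.080 after overexpression (edgeR adjusted p = 6.6e-05), which is 57.6% of control, and of -0.16 ± 0.080 after knockdown (edgeR adjusted p = 0.225). The 2 perturbed groups differed by a log2 value of -0.64 ± 0.080 (edgeR adjusted p = 0.000255).

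The promoters of these first enzymes of the route, taken from RefSeq on GRCh38.p14, are printed because both genes fell together after overexpression. Each runs from 250 bases before to 50 after the first annotated base of the transcript, which is the capital letter. The PHGDH window is chr1:119711684-119711983 on the plus strand and lies inside the deposited locus of the gene. The PSAT1 window is chr9:78296875-78297174, also on the plus strand. The share of G and C is 52.7% in the first and 66.0% in the second, against a median of 58.7% over 35116 promoters.
PHGDH: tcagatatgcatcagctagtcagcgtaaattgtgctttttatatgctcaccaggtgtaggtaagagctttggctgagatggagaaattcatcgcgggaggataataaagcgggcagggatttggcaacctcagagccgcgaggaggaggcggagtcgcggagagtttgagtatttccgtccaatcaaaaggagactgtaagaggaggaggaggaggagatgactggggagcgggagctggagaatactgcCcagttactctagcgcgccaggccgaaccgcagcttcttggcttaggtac
PSAT1: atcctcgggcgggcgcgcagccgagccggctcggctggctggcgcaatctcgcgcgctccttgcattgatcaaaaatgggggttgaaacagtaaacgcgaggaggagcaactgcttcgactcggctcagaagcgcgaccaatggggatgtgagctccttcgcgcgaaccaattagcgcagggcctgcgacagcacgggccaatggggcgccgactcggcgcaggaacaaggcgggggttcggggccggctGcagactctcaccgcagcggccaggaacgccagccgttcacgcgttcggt

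PSPH (ENSG00000146733, chromosome 7, 56011051 to 56051467) encodes phosphoserine phosphatase, which releases serine. Its FPKM was 27.4, 29.1 and 34.8 in control, 11.9, 9.66 and 11.7 in overexpression, and 28.2, 26.7 and 25.5 in knockdown. The overexpression libraries stood apart from the other 6, while knockdown and control overlapped. After overexpression PSPH was at 38.5% of control, the lowest percentage among the 10 in that comparison, with a log2 fold change of -1.38 ± 0.11 (edgeR adjusted p = 1.8e-05). Its log2 fold change after knockdown was -0.20 ± 0.11 (edgeR adjusted p = 0.263), and between overexpression and knockdown it was -1.18 ± 0.11 (edgeR adjusted p = 5.04e-05). The pseudogene PSPHP1 had 388, 358 and 344 counts in control, 114, 118 and 137 in overexpression and 303, 263 and 360 in knockdown, against at least 2026 for PSPH. PSPHP1 was thus lowest in overexpression, like PSPH. Reads could be split between such copies, and the part of this in the values of PSPH was not tested.

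Summed over PHGDH, PSAT1 and PSPH, the FPKM of the serine route was 113, 117 and 126 in control, 60.8, 53.5 and 57.7 in overexpression, and 104, 104 and 109 in knockdown. The means were 119 ± 7.11, 57.4 ± 3.65 and 106 ± 2.68 (SD, n = 3). Within the route the members did not fall equally, since the ratio of PSAT1 to PHGDH FPKM was 5.15 ± 0.173 in control, 6.51 ± 0.218 in overexpression and 5.49 ± 0.522 in knockdown.

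SHMT1 (ENSG00000176974, chromosome 17, 18327860 to 18363563) encodes the cytosolic serine hydroxymethyltransferase, which converts serine and glycine. Its FPKM was 6.21, 6.01 and 6.64 in control, 2.85, 2.42 and 2.45 in overexpression, and 4.91, 5.25 and 5.31 in knockdown. The 3 groups did not overlap, with overexpression lowest and knockdown between. After overexpression its log2 fold change was -1.21 ± 0.096 (edgeR adjusted p = 1.89e-05), to 43.4% of control. After knockdown it was -0.30 ± 0.095 (edgeR adjusted p = 0.0706), and this passed with DESeq2 (adjusted p = 0.0235), among genes with an FPKM of at least 5 (0.0326) and without overexpression 1 (0.0384). SHMT1 shares 197 bases with SMCR8 on the other strand, which had 3915 to 6198 counts, more than the SHMT1 minimum of 1339, and no source used here states whether reads were counted by strand.

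SHMT2 (ENSG00000182199, chromosome 12, 57229573 to 57234935) encodes the mitochondrial enzyme of the same reaction. Its FPKM was 20.4, 20.4 and 22.6 in control, 14.9, 12.5 and 14.8 in overexpression, and 21.7, 16.4 and 18.5 in knockdown. The overexpression libraries were below all others, and knockdown overlapped control. SHMT2 had a log2 fold change of -0.51 ± 0.12 after overexpression (edgeR adjusted p = 0.00649), to 70.2% of control. Without the 4 libraries with hepatocyte transcripts the log2 fold change was -0.69 and no longer passed (edgeR adjusted p = 0.115). Its difference between overexpression and knockdown, -0.33 ± 0.12 (edgeR adjusted p = 0.0447), was lost in 13 of 21 alternative settings. The ratio of SHMT2 to SHMT1 FPKM was 3.29, 3.40 and 3.40 in control, 5.21, 5.16 and 6.03 in overexpression, and 4.43, 3.12 and 3.48 in knockdown, so overexpression stood above both other groups.

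MTHFD2 (ENSG00000065911, chromosome 2, 74198610 to 74215298) encodes the mitochondrial methylenetetrahydrofolate dehydrogenase, which acts on the carbon released by SHMT2. Its FPKM was 43.7, 45.8 and 45.4 in control, 37.4, 39.8 and 40.7 in overexpression, and 38.6, 45.4 and 42.9 in knockdown. The overexpression libraries lay below the controls in FPKM, by a margin that the TMM factors reduced. The log2 fold change was -0.11 ± 0.076 after overexpression (edgeR adjusted p = 0.247, approximate 95% interval -0.30 to 0.074) and -0.10 ± 0.076 after knockdown (edgeR adjusted p = 0.426, interval -0.29 to 0.084). With limma the first of these passed on log2(FPKM + 1) (adjusted p = 0.0495) and did not on log2(FPKM + 0.1) (0.0502). On TPM, the same values rescaled to a fixed sum per library, the log2 fold change after overexpression was 0.042 (limma adjusted p = 0.752). MTHFD2 shares 3695 bases with a gene on the other strand known by a clone name that had 0 to 621 counts, against at least 12715 for MTHFD2.

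ALDH18A1 (ENSG00000059573, chromosome 10, 95605941 to 95656711) encodes pyrroline carboxylate synthase, which starts proline synthesis from glutamate. Its FPKM was 20.6, 22.7 and 22.6 in control, 18.4, 16.3 and 19.0 in overexpression, and 10.1, 10.3 and 11.4 in knockdown. All knockdown libraries were far below the other 6, and the overexpression libraries were slightly below the controls. After knockdown ALDH18A1 had a log2 fold change of -1.06 ± 0.093 (edgeR adjusted p = 0.000384), to 47.9% of control. After overexpression the log2 fold change was -0.21 ± 0.092 (edgeR adjusted p = 0.0792, approximate 95% interval -0.44 to 0.0099), and 6 of 21 alternative settings brought it past the threshold. ALDH18A1 was higher in overexpression than in knockdown by a log2 difference of 0.85 ± 0.092 (edgeR adjusted p = 0.000119).

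OAT (ENSG00000065154, chromosome 10, 124397303 to 124418976) encodes the mitochondrial ornithine aminotransferase. Its FPKM was 32.5, 35.8 and 34.7 in control, 23.2, 25.3 and 27.5 in overexpression, and 8.64, 9.77 and 10.1 in knockdown. The 3 groups did not overlap, with knockdown lowest. After knockdown OAT had a log2 fold change of -1.86 ± 0.097 (edgeR adjusted p = 5.69e-05), to 27.5% of control, which was a 3.63-fold lower level and the largest change among the 10 in any of the 3 comparisons. After overexpression its log2 fold change was -0.36 ± 0.094 (edgeR adjusted p = 0.0119), to 78.1% of control, and this did not pass on TPM (-0.20, limma adjusted p = 0.169) or without the 4 libraries with hepatocyte transcripts (-0.34, edgeR adjusted p = 0.247). OAT was higher in overexpression than in knockdown by a log2 difference of 1.504 ± 0.096 (edgeR adjusted p = 8.86e-06).

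Without the 4 libraries with hepatocyte transcripts, which left 1 control, 1 overexpression and 3 knockdown libraries and 2 residual degrees of freedom, the knockdown changes of OAT (-1.84, edgeR adjusted p = 0.0684) and ALDH18A1 (-1.03, edgeR adjusted p = 0.111) kept their size and did not pass. In that fit the lone libraries are assumed to vary like the knockdown group, and 6 genes of the whole table passed after knockdown. Control 1, whose 18 hepatocyte markers summed to 2.66 CPM, had an OAT FPKM of 32.5 and an ALDH18A1 FPKM of 20.6, both above every knockdown library. The ratio of OAT to ALDH18A1 FPKM was 1.56 ± 0.0238 in control, 1.42 ± 0.150 after overexpression and 0.898 ± 0.0486 after knockdown (SD, n = 3), so OAT fell further than ALDH18A1 after knockdown.

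The promoters of OAT and ALDH18A1, from RefSeq on GRCh38.p14 and cut in the same way, are printed because these genes were the ones lowered after knockdown. The OAT window is chr10:124418874-124419173 and the ALDH18A1 window is chr10:95656662-95656961, both on the minus strand and both written in the direction of transcription. The single capital letter is the first annotated base of the transcript, and the run of capitals in ALDH18A1 is a match to CACGTG that starts 136 bases before it.
OAT: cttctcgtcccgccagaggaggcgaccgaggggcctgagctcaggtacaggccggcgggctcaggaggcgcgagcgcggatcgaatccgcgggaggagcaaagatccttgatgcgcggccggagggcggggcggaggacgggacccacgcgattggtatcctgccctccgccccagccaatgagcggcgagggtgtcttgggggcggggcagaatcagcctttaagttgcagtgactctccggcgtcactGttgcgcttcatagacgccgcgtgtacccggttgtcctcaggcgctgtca
ALDH18A1: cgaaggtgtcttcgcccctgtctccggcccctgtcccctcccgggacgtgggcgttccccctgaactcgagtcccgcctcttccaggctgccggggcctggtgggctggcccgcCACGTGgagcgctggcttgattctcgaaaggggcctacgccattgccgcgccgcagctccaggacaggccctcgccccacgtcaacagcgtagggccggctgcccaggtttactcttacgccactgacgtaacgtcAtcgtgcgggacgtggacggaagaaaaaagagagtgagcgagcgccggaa

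The RefSeq promoter table held 6 of the 10 enzymes (PHGDH, PSAT1, SHMT1, MTHFD2, ALDH18A1 and OAT). Their windows were searched on both strands for TGATGNAA, a core of the element that ATF4 is known to bind with C/EBP factors, and for CACGTG, the palindrome known to be bound by MYC and related factors, which does not overlap the first. TGATGNAA was in 0 of the 6 and in 3.62% of 35116 promoters of the same length. CACGTG was in 1 of the 6, ALDH18A1, and in 7.26% of the 35116. A match describes the letters in a window and says nothing of binding.

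PYCR1 (ENSG00000183010, chromosome 17, 81932384 to 81941079) encodes the mitochondrial reductase that makes proline from pyrroline carboxylate. Its FPKM was 41.1, 43.5 and 57.2 in control, 43.4, 44.2 and 47.0 in overexpression, and 42.4, 35.6 and 40.2 in knockdown. Control 3 stood above the other 8 libraries, and the groups overlapped except that knockdown lay below overexpression. The log2 fold change was 0.0071 ± 0.13 after overexpression (edgeR adjusted p = 0.969, approximate 95% interval -0.31 to 0.33) and -0.27 ± 0.13 after knockdown (edgeR adjusted p = 0.204, interval -0.59 to 0.045). Between overexpression and knockdown it was 0.28 ± 0.13 (edgeR adjusted p = 0.106), and this passed in 3 of 21 alternative settings, without control 3 (0.0311), with these 2 groups only (0.0462) and with 2 groups and a replicate block (0.0419).

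GPT2 (ENSG00000166123, chromosome 16, 46884362 to 46931289) encodes the mitochondrial alanine aminotransferase, which links pyruvate and glutamate to alanine. Its FPKM was 4.14, 5.02 and 4.599 in control, 2.26, 2.26 and 1.70 in overexpression, and 4.003, 4.33 and 4.29 in knockdown. Overexpression stood below both other groups, which overlapped. GPT2 had a log2 fold change of -1.06 ± 0.13 after overexpression (edgeR adjusted p = 0.000232), to 47.9% of control, and of -0.14 ± 0.13 after knockdown (edgeR adjusted p = 0.549, approximate 95% interval -0.46 to 0.19). Its difference between overexpression and knockdown was -0.92 ± 0.13 on the log2 scale (edgeR adjusted p = 0.000559).

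**Figure D2:**
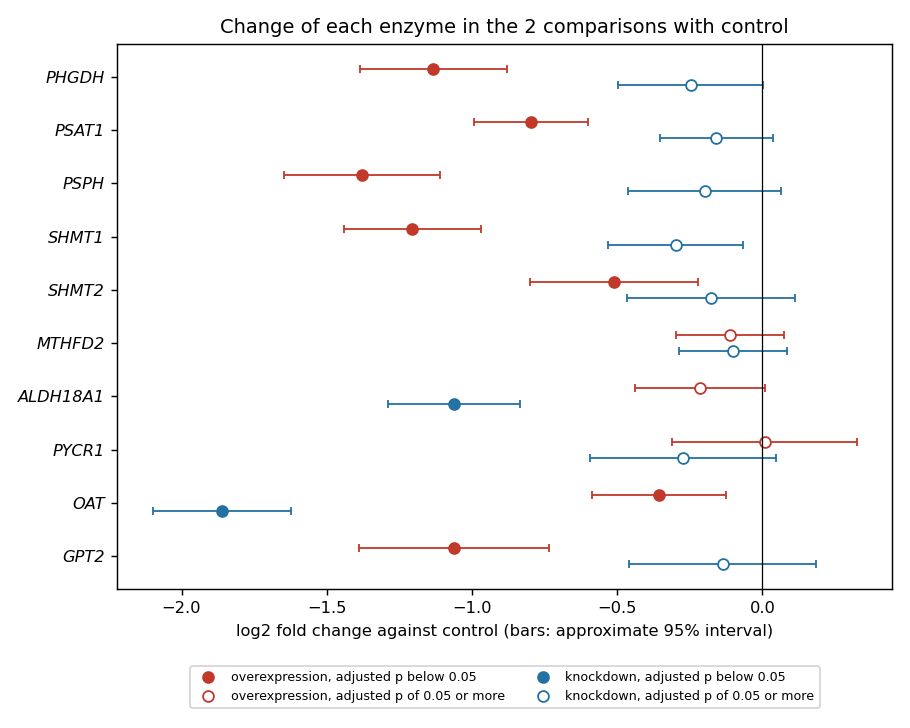
Log2 fold change against control (x axis) of each enzyme (y axis) after overexpression (red) and knockdown (blue), with approximate 95% intervals; filled points have an edgeR adjusted p below 0.05. OAT and ALDH18A1 have their largest decrease after knockdown (-1.86 and -1.06), and PSPH, SHMT1, PHGDH and GPT2 after overexpression (-1.38, -1.21, -1.13 and -1.06).

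**Figure D3:**
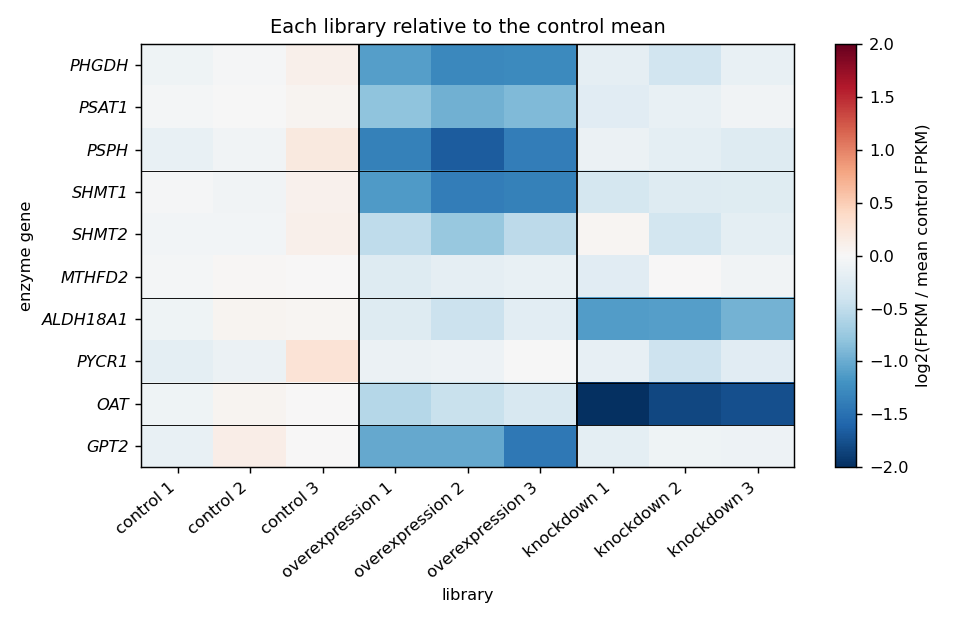
Log2 of each library's FPKM over the mean control FPKM (colour, blue for lower) for the 10 enzymes (rows, grouped by role) and 9 libraries (columns). The blue blocks lie in different columns for the serine genes, SHMT1 and GPT2 (overexpression) and for OAT and ALDH18A1 (knockdown), and within a block the 3 libraries have like colours.

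The direct comparison of overexpression with knockdown sets the 2 perturbations side by side, without control as an arm. The control libraries still enter the shared fit of 3 groups. Plasmid and siRNA differ between these arms too, so a change in NUSAP1 and the reagent used cannot be told apart here either. The values of this comparison too are a description of enzymes chosen with these changes known. PHGDH, PSAT1, PSPH, SHMT1 and GPT2 were lower in overexpression, as was SHMT2, whose call was lost in 13 of 21 alternative settings, and OAT and ALDH18A1 were higher there, while MTHFD2 (-0.010 ± 0.076, edgeR adjusted p = 0.921, approximate 95% interval -0.20 to 0.18) and PYCR1 did not pass. The FPKM ranges of the 2 groups did not overlap, with overexpression lower, for 6 of the 10 (35.0% of all genes), and with overexpression higher for 3 of the 10 (25.1% of all genes), the third being PYCR1.

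Across the 9 libraries, the genes whose log2 CPM followed each enzyme most closely are given by Pearson's r, as a likeness over 3 groups of libraries that share their group differences and depth. ALDH18A1 had OAT itself as its nearest gene (r = 0.988), followed by DDB1 (0.987), and OAT was nearest to IVNS1ABP (0.992) and XPC (0.990). PHGDH was nearest to TLE5 and CSNK1G2 (both 0.996), PSAT1 to TFAP2C (0.998) and RCN3 (0.997), PSPH to HS6ST1 (0.997) and GSN (0.996), SHMT1 to NME3 and ECH1 (both 0.996), and GPT2 to NUDT7 (0.990) and PARD6G (0.986). SHMT2 had PTDSS2 (0.983) and SLC25A1 (0.976). The nearest genes of the enzymes that moved least were less alike, with SH3PXD2B (0.946) and SUOX (0.929) for MTHFD2 and BLOC1S2 (0.950) and EFTUD2 (0.943) for PYCR1.

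The counts of related genes that follow stand beside 27.4% of all genes higher and 26.0% lower after overexpression, and 7.02% and 7.43% after knockdown. Of 15 other genes of folate metabolism, 12 were tested. After overexpression 3 rose and 3 fell, and after knockdown 0 rose and 1 fell. The mitochondrial folate carrier SLC25A32 (log2 fold change 0.84, edgeR adjusted p = 0.000600) and the methionine synthase reductase MTRR (0.82, 0.00262) rose after overexpression. MTHFD1, the cytosolic enzyme related to MTHFD2, had log2 fold changes of -0.16 after overexpression (adjusted p = 0.105) and 0.046 after knockdown (0.747), and its mitochondrial relative MTHFD1L had 0.21 (0.109) and 0.19 (0.247). The 1 gene that fell after knockdown was GGH, a hydrolase of folate polyglutamates (-0.40, edgeR adjusted p = 0.0136), which did not pass without knockdown 1 (0.0562) or on TPM (0.140). The median log2 fold change of the 12 was -0.057 after overexpression, and 0.11 on TPM.

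Of 9 genes of glycine and serine breakdown, 6 were tested, of which 4 fell and 0 rose after overexpression and 1 fell and 0 rose after knockdown. SRR, the serine racemase, averaged 10.04 FPKM in control libraries, 3.90 after overexpression and 6.78 after knockdown, and fell in both comparisons (log2 fold changes -1.28, edgeR adjusted p = 1.38e-05, and -0.58, 0.00610). SDSL, related to serine dehydratase, had a log2 fold change of -1.12 after overexpression (edgeR adjusted p = 0.00183). The other 2, DLD and GCSH of the glycine cleavage system, lost their calls in several settings, for example DLD without control 1 (edgeR adjusted p = 0.0513) and GCSH without control 2 (0.116). Of 6 tested genes that use serine, 2 fell and 0 rose after overexpression, and 1 fell and 0 rose after knockdown. CBS, the cystathionine synthase, fell after overexpression (-0.77, edgeR adjusted p = 0.00120), and SPTLC1, a subunit of serine palmitoyltransferase, fell after knockdown (-1.51, edgeR adjusted p = 3.52e-05). SPTLC1 had FPKM values of 9.10, 9.46 and 9.40 in control and 3.44, 3.48 and 2.98 in knockdown, and 8.83, 9.64 and 9.63 in overexpression.

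Of 5 other proline genes, 3 were tested, of which 2 fell and 0 rose in each comparison with control. PRODH, the proline oxidase, was at an FPKM of at most 0.28. ALDH4A1, which oxidizes the pyrroline carboxylate product to glutamate, fell after overexpression (-0.99, edgeR adjusted p = 0.000129) and after knockdown (-0.66, edgeR adjusted p = 0.00702). PYCR3, which is cytosolic, fell after overexpression (-0.67, edgeR adjusted p = 0.00425), and its log2 fold change after knockdown was -0.19 (0.424).

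Of 17 genes of the urea cycle and of polyamine synthesis and breakdown, 14 were tested. After overexpression 7 rose and 1 fell, and after knockdown 3 rose and 4 fell. ODC1, the ornithine decarboxylase, rose in both comparisons (log2 fold changes 0.89, edgeR adjusted p = 5.83e-05, and 0.68, 0.00207), averaging 91.7 FPKM in control libraries, 161 after overexpression and 149 after knockdown. SAT1, which acetylates spermidine and spermine, rose after overexpression (0.91, edgeR adjusted p = 1.29e-05) and fell after knockdown (-0.83, edgeR adjusted p = 0.000283). ASS1, which makes argininosuccinate, fell in both (-1.54, edgeR adjusted p = 2.14e-05, and -0.87, 0.00337). The spermine oxidase SMOX (1.85, edgeR adjusted p = 3.42e-05) and the arginase ARG2 (1.48, 0.0161) rose after overexpression, ARG2 from a mean FPKM of 0.731 to 1.92.

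Of 10 genes of glutamate metabolism and transamination, 7 were tested, of which 2 rose and 3 fell after overexpression and 0 rose and 1 fell after knockdown. GOT1, the cytosolic aspartate aminotransferase (1.13, edgeR adjusted p = 4.49e-05), rose after overexpression, and BCAT2, a branched-chain aminotransferase, fell (-0.91, edgeR adjusted p = 0.000561). GLUD1, the glutamate dehydrogenase, was the gene that fell after knockdown (-0.74, edgeR adjusted p = 0.000421), at 40.04, 41.8 and 42.2 FPKM in control and 25.2, 25.3 and 24.3 in knockdown. ASNS, the asparagine synthetase and a textbook ATF4 target, had log2 fold changes of 0.17 (adjusted p = 0.239) and -0.12 (0.526).

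Of 14 tested amino acid transporters, 5 rose and 5 fell after overexpression, and 2 rose and 3 fell after knockdown. SLC3A2, the shared heavy chain of several exchangers, rose after overexpression (1.37, edgeR adjusted p = 1.03e-05). SLC6A9, a glycine transporter, fell in both (-1.40, edgeR adjusted p = 0.000494, and -1.001, 0.0136), and SLC7A1, which imports arginine and ornithine, rose in both (0.45, edgeR adjusted p = 0.000723, and 0.68, 0.000772). SFXN1, which carries serine into mitochondria, rose after knockdown (0.61, edgeR adjusted p = 0.00116) and was 0.054 after overexpression (0.538).

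Of 18 regulators of these routes and stress response genes, 9 rose and 3 fell after overexpression, and 5 rose and 0 fell after knockdown. PPP1R15A, a phosphatase subunit induced by stress (3.74, edgeR adjusted p = 4.65e-08), the sestrin SESN2 (2.03, 1.06e-06) and the transcription factor ATF3 (4.57, 5.13e-06) rose after overexpression, and PPP1R15A (0.96, 0.000197) and SESN2 (0.92, 0.000465) also rose after knockdown. CHAC1 rose after knockdown (0.55, edgeR adjusted p = 0.0177), a call lost in 6 of 21 alternative settings, and did not pass after overexpression (0.19). ATF4 itself had FPKM values of 15.5, 26.1 and 16.4 in control, 23.9, 19.3 and 44.0 in overexpression and 19.1, 18.0 and 19.9 in knockdown, with log2 fold changes of 0.67 (edgeR adjusted p = 0.0914) and -0.035 (0.958). Overexpression 3 was highest for ATF4, and the groups overlapped. Of 20 cytosolic aminoacyl-tRNA synthetases, many of them also known as ATF4 targets, 14 rose and 1 fell after overexpression and 3 rose and 2 fell after knockdown. TARS1 (1.11, edgeR adjusted p = 4.17e-06) and VARS1 (0.80, 2.08e-05) rose after overexpression, and QARS1 fell (-0.998, 3.89e-06).

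The median log2 fold changes after overexpression were 0.82 for the regulators and 0.36 for the synthetases, against -0.65 for the 10 enzymes and -0.0037 for all genes tested. Over the 9 lists together, 40 of 100 tested genes rose and 24 fell after overexpression, where 27.4% of all genes rose and 26.0% fell, and 13 rose and 15 fell after knockdown, where 7.02% rose and 7.43% fell. With limma on TPM, 48 of the 100 rose and 16 fell after overexpression, where 3974 of all 12545 genes rose and 2248 fell. After knockdown 17 rose and 9 fell on TPM, where 1414 of all genes rose and 449 fell. Without the 4 libraries with hepatocyte transcripts, 17 rose and 9 fell after overexpression, where 1164 of all 12545 genes rose and 1255 fell, and after knockdown edgeR called 0 of the 100, of which 12 were higher and 15 lower at an unadjusted p below 0.05. No share of all genes at an unadjusted p is given beside these counts. The lists hold genes chosen with earlier results of these data known.

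**Figure D4:**
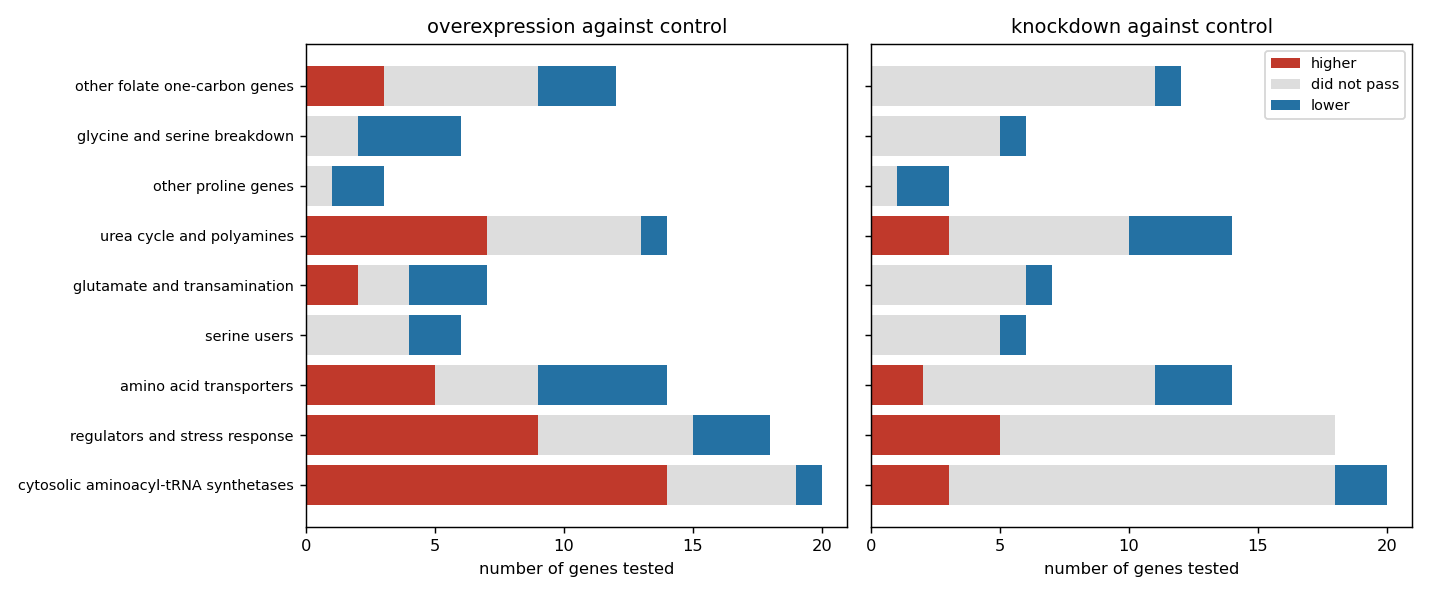
Number of tested genes (x axis) in each of 9 lists of related genes (y axis) that were higher (red), lower (blue) or did not pass (grey) at an edgeR adjusted p below 0.05, after overexpression (left) and knockdown (right). After overexpression 14 of 20 synthetases and 9 of 18 regulators were higher, and 4 of 6 glycine and serine breakdown genes were lower, beside 27.4% of all genes tested that were higher and 26.0% that were lower.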

How the data were processed

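RNA was poly(A)-selected from PANC1 cells and made into libraries with a dUTP protocol, per the labels' protocols. The authors deposited a single table of 60612 genes that gives, for every one of the 9 libraries, whole-number read counts and FPKM values. Trimming, alignment and assembly tools named in the submitters' processing notes are cutadapt 1.9, HISAT2 2.0.4 and StringTie 1.3.4d. Their settings, the genome build and the use of strand were not given in the sources used here. An FPKM of 0 is written as 0.0001, and 221 such entries stand beside a count above 0. Gene identifiers were compared with GENCODE 29 (GRCh38), where all 10 enzymes matched and overlapped the deposited positions, which are printed as the table gives them.

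The members and the gene lists were chosen with earlier results of these data known. The counts were fitted with edgeR 4.0.16 (R 4.3.3): TMM factors, one model of 3 groups with 6 residual degrees of freedom, and quasi-likelihood tests. The 12545 genes tested reached an FPKM of 1 in 3 or more of the 9 libraries, p-values were adjusted by Benjamini-Hochberg over all of them, and a gene was called at an adjusted p below 0.05. Standard errors were derived from the F statistic, and they and the 95% intervals are approximate. The common biological coefficient of variation was 0.226. The script was tested on simulated data first. Alternatives were DESeq2 1.42.0, limma 3.58.1 on log2(FPKM + 1), log2(FPKM + 0.1) and log2(TPM + 1), other size factors, no filter and a filter at an FPKM of 5, a replicate block, 2 groups only, each library left out, and, added after the data were seen, leaving out the 4 libraries with hepatocyte transcripts.

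Pairing by replicate number was checked with the correlation of deviations from the mean of each group. Same-numbered libraries of knockdown and control had r of 0.147, 0.129 and 0.107, and differently numbered ones -0.083 to -0.033. Pairing by number may hold there, but the labels do not state it. A value above 0.1 does not mark a pair, since overexpression 1 and knockdown 3 had 0.211. The main fit has no replicate term, so its p-values do not use any pairing, and the replicate block is an alternative. Overexpression and control libraries had -0.093, -0.012 and -0.013, and overexpression and knockdown libraries -0.057, 0.236 and 0.067. The genes named are the 10 enzymes, NUSAP1, their isoforms and reverse-reaction partners, up to 3 genes per list and comparison with the smallest adjusted p, and for each enzyme the 2 genes of highest correlation. Not all of them are named, some are not reported here, and DLD, GCSH, COL1A1 and CD68 are given beside a count or a sum.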

Additional observations from a re-analysis of the deposited data

How the results depend on the processing

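No enzyme that passed changed direction in any alternative. Without the 4 libraries with hepatocyte transcripts, an alternative chosen after seeing the data that leaves 2 residual degrees of freedom, the genes called were 2419 after overexpression (6702 with all libraries), 6 after knockdown (1813) and 3539 between the perturbations (6270). The enzymes called after knockdown then numbered 0 (2 with all libraries). The genes called in the 9 lists numbered 26 (64), 0 (28) and 37 (61). That fit holds 1 control and 1 overexpression library, so a call lost in it does not show that the change was absent. In it the log2 fold changes after knockdown were -1.84 for OAT and -1.03 for ALDH18A1. Those of the 7 enzymes called after overexpression with all libraries ran from -1.49 (PSPH) to -0.34 (OAT). DESeq2 called 2767 genes after knockdown, and no filter 1058, with 18 in the lists. With an FPKM of at least 5, where fewer genes are tested and GPT2 was not tested, 4229 were called after overexpression and 4069 between the perturbations.

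Leaving out 1 library at a time gave 5851 to 6792 genes after overexpression, 962 to 1702 after knockdown and 5354 to 6158 between the perturbations, where the knockdown count was 1116, 1174 and 1060 without control 1, 2 and 3 and 962 without knockdown 1. The enzymes called were then 7 to 8, 2 to 3 and 7 to 8, and the list genes 55 to 64, 19 to 28 and 50 to 59. With the replicate block 2 enzymes were called after knockdown, as without it, among 2132 genes called. After overexpression 8 were called with the block, among 7068 genes called (6702 without it), where ALDH18A1 was added (edgeR adjusted p = 0.0494). The block changed no other call of an enzyme in the fit of 3 groups. With 2 groups only and the block, QARS1 no longer passed after knockdown (adjusted p = 0.0516). On TPM the median log2 fold change of all genes was 0.137 after overexpression and 0.141 after knockdown. The share of higher genes among those called on TPM was 63.9% and 75.9%, against 51.3% and 48.6% in the main fit. The causes were not tested beyond the number of genes and libraries in each fit.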
